A study of Mus musculus with 4 samples.

Results

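The 9 genes described here encode transcription factors of the limb mesenchyme: Prrx1, Prrx2, Twist1, Twist2, Hand2, Alx1, Alx4, Lhx2 and Lhx9. They were chosen by name, as factors that mark the main cell population of the limb bud, and they are 9 of 22225 protein-coding genes in the GENCODE M1 annotation of the mouse genome. What was measured at each gene was open chromatin. ATAC-seq uses the Tn5 transposase to cut and tag DNA where chromatin is accessible, and each library gave a list of summits, the positions of highest signal within called peaks.

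Limb cells came from mouse embryos at stage E11.5 of the strain background c57bl6.J X 129S6.sv, with forelimb and hindlimb given together as the tissue. The mutant embryos carried an inserted stop cassette, an element used to end transcription early, and the controls were wild type. Each genotype had 2 libraries, called stop cassette replicates 1 and 2 and wild-type replicates 1 and 2 here. All 4 were made the same way per the labels: the limbs were dispersed with trypsin and the cells fixed with paraformaldehyde before transposition. The labels give neither the site of the insertion nor whether replicates were separate embryos or litters, so a p-value here measures the spread between these libraries, which may be technical.

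The mesenchyme of the limb bud gives rise to skeleton and connective tissue, and it lies beneath an ectoderm whose ridge feeds it growth signals. Twist1, Twist2 and Hand2 belong to the basic helix-loop-helix family, whose dimers bind E-boxes, short sites read as CANNTG. Prrx1, Prrx2, Alx1 and Alx4 carry a paired-type homeodomain and Lhx2 and Lhx9 a homeodomain with LIM domains, and homeodomains bind sites with a TAAT core. Hand2 acts in the posterior limb bud upstream of Shh, Alx4 restrains Shh in the anterior bud, and Lhx2 and Lhx9 help carry signals from the ridge to the mesenchyme.

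The lists held between 51701 and 107827 summits, and both stop cassette lists (79083 and 107827) were longer than both wild-type lists (51701 and 68471). Of the summits in a list, 42.0% to 61.8% lay more than 1 kb from every annotated start. The lists carry no read numbers, so the depth behind each is unknown. Each summit came with a score, read as −log10 of its q-value, and the score was used only as a percentile rank within its own list, 0 being the weakest summit and 100 the strongest. Among marker lists for the tissue, 8 of 10 limb bud genes had a summit at a start in all 4 lists, where 57.6% of all protein-coding genes did. None of 5 liver genes had a start summit in any list. Of 6 muscle precursor genes, 0 had one in all 4 lists and 2 had none in any, and Myod1 had one in 3. Tbx5, a forelimb marker, had none in any list, whereas the hindlimb markers Pitx1 and Tbx4 had one in 4 and 3 lists. Ectoderm (2 of 6), endothelium (1 of 6), blood (2 of 4) and neural (1 of 5) genes were represented in part, and a summit at a start says nothing of which cells it came from.

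Chromatin at the starts of the 9 genes was called open in nearly every library, with ranks below the median of the genes called in all 4 lists. A summit within 1 kb of an annotated start was present in all 4 lists for 8 of the 9 genes, the exception being Prrx2 with 3 lists. Over all protein-coding genes this share was 57.6% (12802 of 22225). When each list was cut to the length of the shortest, 6 of the 9 genes kept a start summit in all 4 lists. Over all protein-coding genes, 12187 of 22225 had one in all 4 lists at that length. Prrx2 then had no start summit in any list. For each gene and list, the percentile of the strongest start summit was then compared with that of the 12802 genes called in all 4 lists. The median over those genes was 90.9 and 93.7 in the stop cassette lists and 86.0 and 89.6 in the wild-type lists. None of the 9 genes exceeded this median in any list. The medians over the 8 genes called in all lists were 51.3 and 73.7 in the stop cassette lists and 63.6 and 73.0 in the wild-type lists. The nearest approaches were Hand2 in wild-type replicate 2 (85.7) and Twist2 in wild-type replicate 1 (83.9). Low start ranks were seen in some other gene lists too. Averaged over the 4 lists, the median rank was 65.7 over the 8 of them and 89.7 over all 12802. It was 58.9 over 8 limb bud genes, 59.0 over 2 ectoderm genes, 50.6 over 2 blood genes and 53.7 for 1 neural gene. The 1 endothelial gene called in all lists, Kdr, ranked higher, at 81.1. No test was made of the 9 genes as a set.

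**Figure D1:**
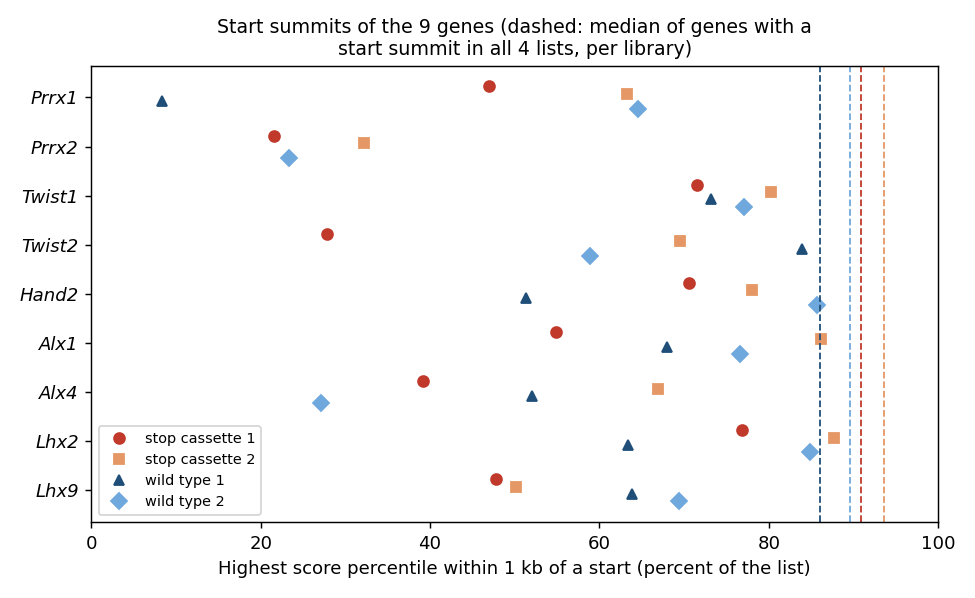
Percentile of the strongest summit within 1 kb of a start (horizontal axis, percent of the list) for each of the 9 genes in each of the 4 libraries (symbols), with the median over 12802 genes as a dashed line per library in the same colour. Every symbol lies to the left of the line of its own colour, and Prrx2 has no symbol for wild-type replicate 1.

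Averaged over the 4 lists, the strongest start summit stood at the 78.2 percentile for Lhx2, 75.5 for Twist1, 71.4 for both Hand2 and Alx1, 60.04 for Twist2, 57.8 for Lhx9, 46.3 for Alx4 and 45.8 for Prrx1. Prrx2 averaged 25.7 over its 3 lists. Neighbours in this order overlapped in their ranges over the lists throughout. Farther apart, Twist1 (lowest value 71.6) was above the highest values of Lhx9 (69.4), Alx4 (66.9) and Prrx1 (64.6). Among the 12802 genes, these means placed the 8 genes between the 2.92 percentile (Prrx1) and the 23.3 percentile (Lhx2). The number of annotated starts differs between the genes, from 1 for Twist1, Twist2 and Hand2 to 6 for Lhx9, and a gene with more starts offers more places for a strong summit. The genes with 1 start averaged 75.5, 71.4 and 60.04, and Lhx2 has 5 starts. The part of the number of starts in these ranks was not tested.

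**Figure D2:**
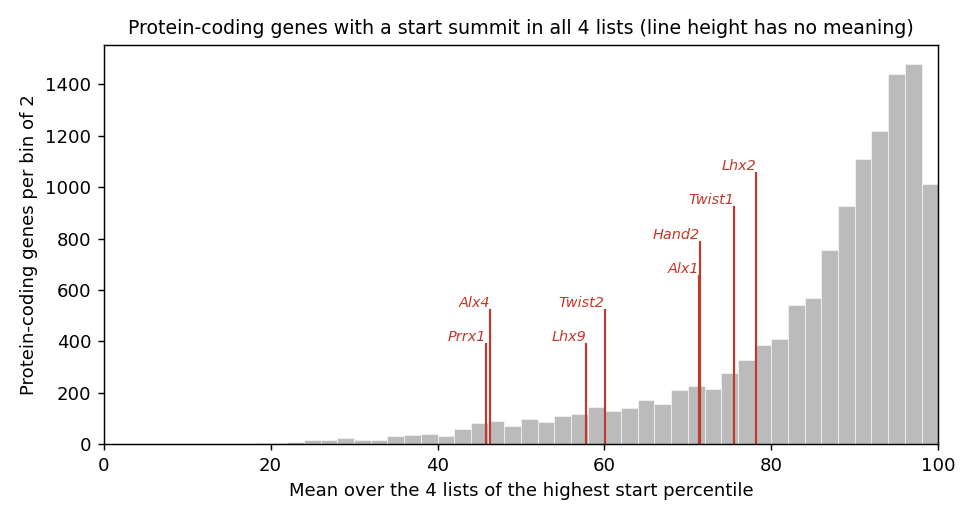
Number of protein-coding genes (vertical axis) by the mean over the 4 lists of their strongest start percentile (horizontal axis, bins of 2), for 12802 genes. The lines mark the 8 genes called in all lists, which lie between 45.8 and 78.2, below the median of 89.7; the height of a line carries no value.

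The median number of start summits over the 8 genes was 2.5 and 4.5 in the stop cassette lists, against 3 and 3 over the 12802 genes, and 2.5 and 2.5 in the wild-type lists, against 2 and 3. It was thus higher than over all these genes in 2 lists and lower in the other 2. Their start regions, formed by joining summits of the 4 lists extended by 250 bp on each side, had a median width of 1739 bp, wider than 86.7% of all 13018 start regions held by all 4 lists. The 300 bases on the strongest summits of these 8 regions were similar in composition to those of all start regions held by 4 lists. Their median GC content was 63% against 65%, and their median ratio of observed to expected CpG was 0.786 against 0.801.

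Twist1, a basic helix-loop-helix factor needed for limb bud outgrowth, is a short gene on the plus strand at chr12:34642536-34644682 (mm9). Its strongest start summit ranked at 71.6 and 80.3 in stop cassette replicates 1 and 2 and at 73.1 and 77.1 in wild-type replicates 1 and 2. This was the narrowest range of the 8 genes, 8.74 percentile points, and the genotypes overlapped. The group means were 75.9 ± 6.18 and 75.1 ± 2.81 (SD, n = 2 each; exact permutation p = 1). The strongest summits lay 88 and 237 bases before the start in stop cassette replicate 1 and wild-type replicate 2, and within 1 base of it in the other libraries. Its promoter is shown for the GC box (GGGCGG or, on the other strand, CCGCCC), the binding site of Sp-type factors, which is in capitals. These are the 150 bases before the start, on the plus strand at chr12:34642386-34642535.
Twist1: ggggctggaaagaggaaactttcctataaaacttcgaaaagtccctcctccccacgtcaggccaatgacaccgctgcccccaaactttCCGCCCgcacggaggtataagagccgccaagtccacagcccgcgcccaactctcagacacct

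Twist2, the close relative of Twist1, lies on chromosome 1 (plus strand, chr1:93698038-93744605). Its strongest start summit ranked at 27.8 in stop cassette replicate 1 and at 69.5 in replicate 2. In the wild type it ranked at 83.9 and 58.9. The 4 values spread over 56.1 percentile points, and replicate 1 of the stop cassette was the lowest. The genotypes overlapped, with group means of 48.7 ± 29.5 and 71.4 ± 17.7 (SD, n = 2 each; exact permutation p = 0.667). The position moved too: the strongest summit was 86 and 74 bases before the start in stop cassette replicate 2 and wild-type replicate 1, but 373 and 297 bases after it in the other libraries. The 150 bases before the start (plus strand, chr1:93697888-93698037) hold 4 GC boxes, 2 of them side by side, against 1 in Twist1.
Twist2: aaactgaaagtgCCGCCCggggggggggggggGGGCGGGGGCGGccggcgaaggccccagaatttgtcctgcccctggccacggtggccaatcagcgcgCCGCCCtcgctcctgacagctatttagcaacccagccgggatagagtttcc

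Hand2 (plus strand, chr8:59799780-59803314) had the most sharply placed start summit. It lay 47, 28, 14 and 19 bases before the start in stop cassette replicates 1 and 2 and wild-type replicates 1 and 2. Its ranks were 70.6, 78.0, 51.4 and 85.7 in the same order. Wild-type replicates 1 and 2 were the lowest and the highest, so both stop cassette values fell between them (74.3 ± 5.20 against 68.5 ± 24.3, SD, n = 2 each; exact permutation p = 1). The sequence before the start (plus strand, chr8:59799630-59799779) has 2 GC boxes 3 bases apart, upstream of all 4 summits.
Hand2: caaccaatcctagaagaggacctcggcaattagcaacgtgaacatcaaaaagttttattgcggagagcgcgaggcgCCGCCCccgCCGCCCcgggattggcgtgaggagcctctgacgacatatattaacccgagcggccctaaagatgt

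Searched over the 150 bases before the outermost start of every protein-coding gene, a GC box was found in 35.5% (7889 of 22225). Alx1 also had 1, and none was found in this window in Prrx1, Prrx2, Alx4 or Lhx9. Lhx2 had 4. In the 300 bases on the strongest summit, a GC box was found in 7 of the 8 start regions held by all 4 lists (87.5%), against 71.1% of all such regions. An E-box of any form (CANNTG) was found in 1 of the 8 (12.5%), against 60.9%. The form CAGATG, one of the sequences covered by CANNTG and sought on both strands, was in 0 of 8, against 10.4%. The homeodomain core TAATTA was also in 0 of 8, against 1.57%. These matches describe letters in a window and not binding.

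Among the paired-type homeodomain genes, Prrx1 is an early and broad marker of limb mesenchyme. It lies on the minus strand at chr1:165175247-165243841 with 5 annotated starts. Its strongest start summit ranked at 47.0 and 63.2 in the stop cassette lists and at 8.30 and 64.6 in the wild-type lists. Wild-type replicate 1 stood apart from the other libraries, and the genotypes overlapped (55.1 ± 11.52 against 36.5 ± 39.8, SD, n = 2 each; exact permutation p = 1). In 3 libraries the strongest summit was 854 to 881 bases before the outermost start, and in stop cassette replicate 1 it was 53 bases after a start.

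Prrx2, which shares functions with Prrx1 in the limb, lies on the plus strand at chr2:30690492-30736761. Start summits ranked at 21.6 and 32.2 in the stop cassette lists and at 23.4 in wild-type replicate 2, and wild-type replicate 1 had none. They were 31, 180 and 168 bases before an inner start at position 30700964 and not at the outermost start. The nearest region to the outermost start lay 1167 bases before it, outside the 1 kb limit, with ranks of 37.2 in stop cassette replicate 2 and 36.4 and 40.7 in the wild type. With a limit of 2 kb, all 9 genes had a start summit in every list.

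Alx1 (minus strand, chr10:102470481-102491685, with 2 gene identifiers under this symbol) and Alx4 (plus strand, chr2:93482541-93521496) are related genes best known from craniofacial and anterior limb patterning. The Alx1 start ranked at 54.8 and 86.1 in the stop cassette lists and at 68.0 and 76.6 in the wild-type lists. All 4 of its strongest summits fell between 71 and 121 bases after the same annotated start. The Alx4 start ranked at 39.2 and 66.9 in the stop cassette and at 52 and 27.2 in the wild type. In both genes the genotypes overlapped, with exact permutation p = 1 for Alx1 and 0.667 for Alx4.

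Lhx2, a LIM homeodomain gene (plus strand, chr2:38194801-38225253) had the highest mean rank of the 9 genes, with 76.8 and 87.7 in the stop cassette lists and 63.4 and 84.8 in the wild-type lists. These summits lay 213 to 385 bases before an inner start at position 38206828, in an intron of the longer transcripts. At the outermost start, by contrast, a region was held by the stop cassette lists alone (50.1 and 41.5). The strongest Lhx2 summits of the genotypes overlapped (82.2 ± 7.65 against 74.1 ± 15.2, SD, n = 2 each; exact permutation p = 0.667).

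For Lhx9 (minus strand, chr1:140721763-140745153), the strongest start summit ranked at 47.7 and 50.2 in the stop cassette lists and at 63.8 and 69.4 in the wild-type lists. It lay 154 to 231 bases before the outermost start in all of them. Lhx9 was the only gene of the 8 tested in which the genotypes did not overlap, both stop cassette values being lower. The means were 49.0 ± 1.73 and 66.6 ± 3.97 (SD, n = 2 each), a difference of -17.7 percentile points. The exact permutation p was 0.33, the smallest that 2 against 2 libraries allow, and 0.731 after Benjamini-Hochberg adjustment over 12802 genes. Such a separation with the wild type higher was seen in 4.34% of those genes. Separation with the stop cassette higher, found in 41.3% of them, was found in 0 of the 8.

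List length goes with genotype here, and the 2 cannot be told apart: a longer list reaches further down into weak summits and lifts the percentile of a strong one. At equal list length the same separations were seen in 20.2% (stop cassette higher) and 19.9% (wild type higher) of 12187 genes. Among the 6 genes then tested, 0 were higher in the stop cassette and 1, Twist1, was higher in the wild type (56.5 and 58.9 against 73.1 and 69.7; exact permutation p = 0.33). Lhx9 could not be tested at equal length, because stop cassette replicate 2 kept no start summit for it. With each library left out, the difference in Lhx9 lay between -20.5 and -14.9 percentile points. Its direction could not change there, because the genotypes did not overlap.

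Around the genes, summits were counted within 100 kb of each gene body. The 9 windows together cover 2.08 Mb. They held 113 and 204 summits in stop cassette replicates 1 and 2 and 76 and 116 in wild-type replicates 1 and 2. As shares of a list these were 0.143% (95% Wilson interval 0.119% to 0.172%) and 0.189% (0.165% to 0.217%), then 0.147% (0.117% to 0.184%) and 0.169% (0.141% to 0.203%). All 4 intervals overlap. The windows held 54.3, 98.0, 36.5 and 55.7 summits per Mb, against 29.8, 40.6, 19.5 and 25.8 over the placed genome, in the same order. Prrx2 alone held 40, 52, 27 and 34 of the summits. Set against windows of other genes, the median of the mean density was 1.42 per 10000 summits of a list over the 9 genes and 1.66 over all protein-coding genes. Prrx2, Prrx1 and Hand2 stood at the 98.0, 62.2 and 61.0 percentile of genes, and the other 6 between 15.1 and 43.4. This density is not divided by the length of the window, which ran from 0.202 Mb at Twist1 to 0.269 Mb at Prrx1. The part of gene length in these ranks was not tested.

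**Figure D3:**
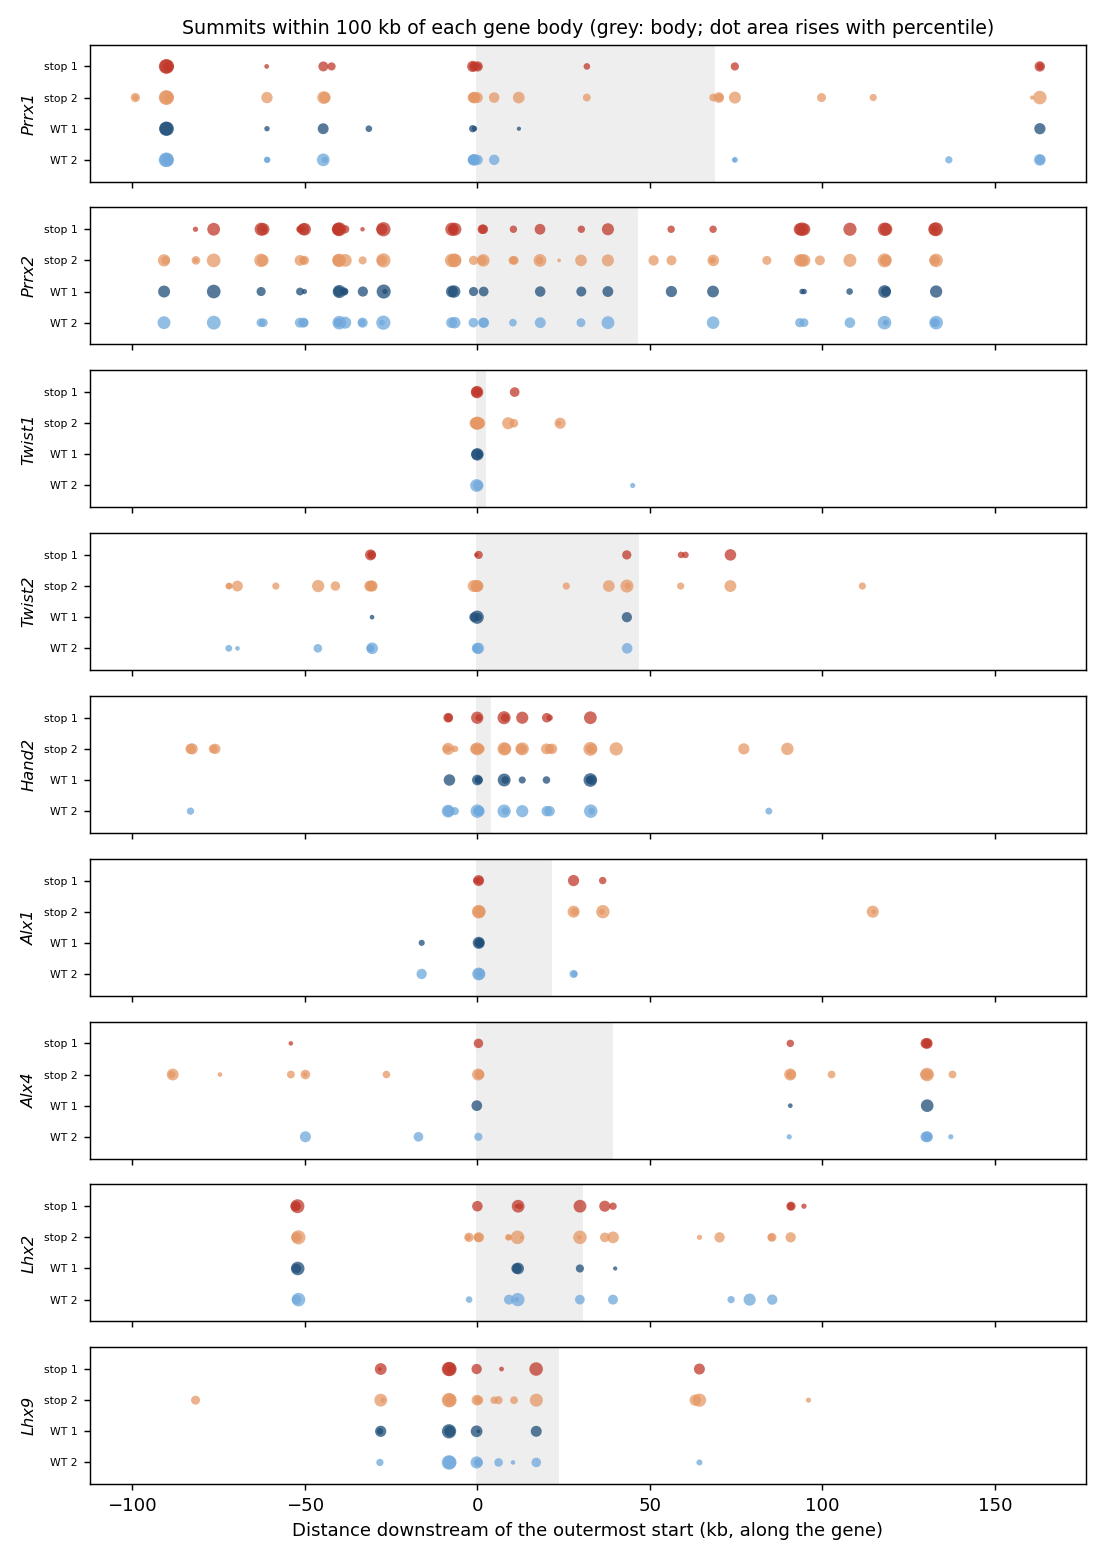
Summits within 100 kb of each gene body by distance from the outermost start (horizontal axis, kb along the direction of transcription), with a row per library and a panel per gene; the area of a dot rises with the percentile and the gene body is grey. Prrx2 shows aligned columns of dots over its whole window, Hand2 shows them from 8471 bases upstream to 32739 bases downstream, and Twist1 and Alx1 show one such column, at the start.

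Prrx2 had by far the densest window. It held 40 and 52 summits in the stop cassette lists and 27 and 34 in the wild-type lists. Per 10000 summits of the list these were 5.06, 4.82, 5.22 and 4.97, nearly the same in all 4 libraries and at the 98.0 percentile of 20485 genes. The genotype means were 4.94 ± 0.166 and 5.09 ± 0.182 (SD, n = 2 each; exact permutation p = 0.667). Other genes' starts share this window, among them Mettl11a, Asb6, Ptges, Tor1a and Tor1b.

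Averaged over the 4 lists, Twist1 had the sparsest window, although Alx1 was sparser in stop cassette replicate 2. The Twist1 window held 5 and 11 summits in the stop cassette lists and 3 and 3 in the wild-type lists, or 0.632, 1.02, 0.580 and 0.438 per 10000. The stop cassette values were both above the wild-type values (0.826 ± 0.274 against 0.509 ± 0.100, SD, n = 2 each). The counts behind this are small, and the exact permutation p was 0.33, or 1 after adjustment over 20485 genes.

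For the remaining genes the densities were intermediate or low. Prrx1 had 2.02 and 2.41 per 10000 in the stop cassette and 1.74 and 2.48 in the wild type. Hand2 had 1.26 and 2.60 against 2.13 and 2.48. Twist2 had 1.14 and 2.13 against 0.967 and 1.46. In each of these genes the genotypes overlapped. Alx4 had 0.759 and 1.67 against 0.580 and 1.17, and Lhx9 had 1.14 and 1.48 against 1.35 and 1.46, again with overlap. Lhx2 had 1.64 and 1.95 in the stop cassette against 1.16 and 1.61 in the wild type, and was the other gene with both stop cassette values higher. Alx1 had 0.632 and 0.835 against 0.967 and 0.876, and was the only gene with both wild-type values higher.

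**Figure D4:**
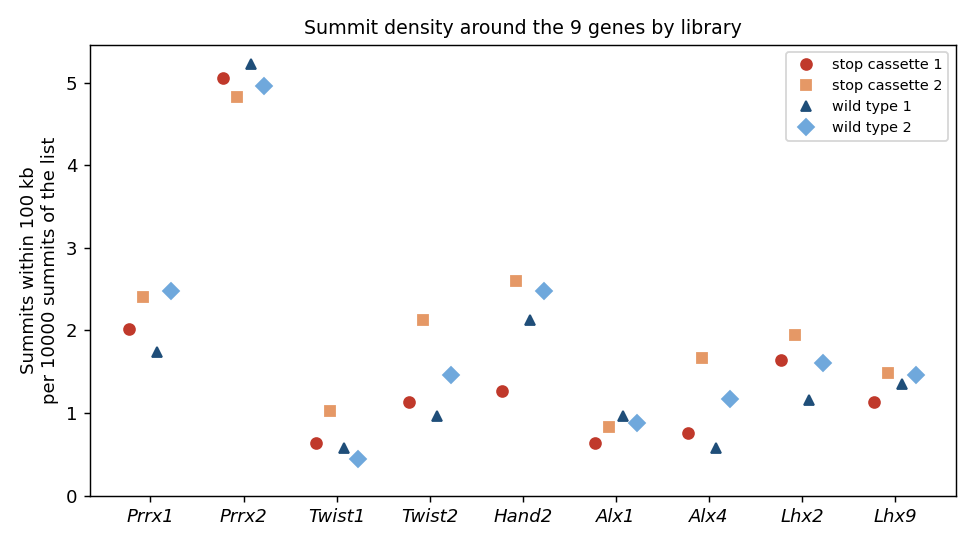
Summits within 100 kb of each gene body per 10000 summits of the list (vertical axis) for the 9 genes (horizontal axis), with a symbol per library. Prrx2 lies between 4.82 and 5.22 in all 4 libraries and every other gene at 2.60 or lower.

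The 9 genes thus included 2 with a higher density in both stop cassette libraries, Twist1 and Lhx2, where 13.7% of all 20485 genes tested did so. They included 1 with a higher density in both wild-type libraries, Alx1, where 19.3% did. All exact permutation p-values were at least 0.33, and 1 after adjustment. At equal list length the counts were 0, against 15.7% of 20138 genes, and 1, against 11.4%. That gene was Prrx2, with 25 and 25 summits against 27 and 29. The Lhx2 difference turned from 0.412 to -0.193 per 10000 at equal list length. The differences of Twist1 (0.317 per 10000), Lhx2 (0.412) and Alx1 (-0.188) were larger in size than either SD of their gene. These are the same genes whose genotypes did not overlap, so the SDs are no separate support. With a smallest possible p of 0.33, the exact permutation test could pass no density difference, so it decides nothing here.

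Joining the summits of all lists gave 128 regions within 100 kb of the 9 genes, of 74585 in the genome. All 4 lists held 44 of them (34.4%, against 32.0% of all regions), 11 were held by 3 lists, 25 by 2 and 48 by 1. Of the 48, 36 were in stop cassette replicate 2 alone, the longest list. By position, 82 were intergenic, 31 in introns, 11 in untranslated parts of exons, 3 in coding exons and 1 in a non-coding exon. At starts of the 9 genes there were 13 regions, and 13 at starts of other genes. The remaining 102 were distal, more than 1 kb from every annotated start, and 25 of these (24.5%) were held by all 4 lists, against 19.2% of all 56416 distal regions.

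**Figure D5:**
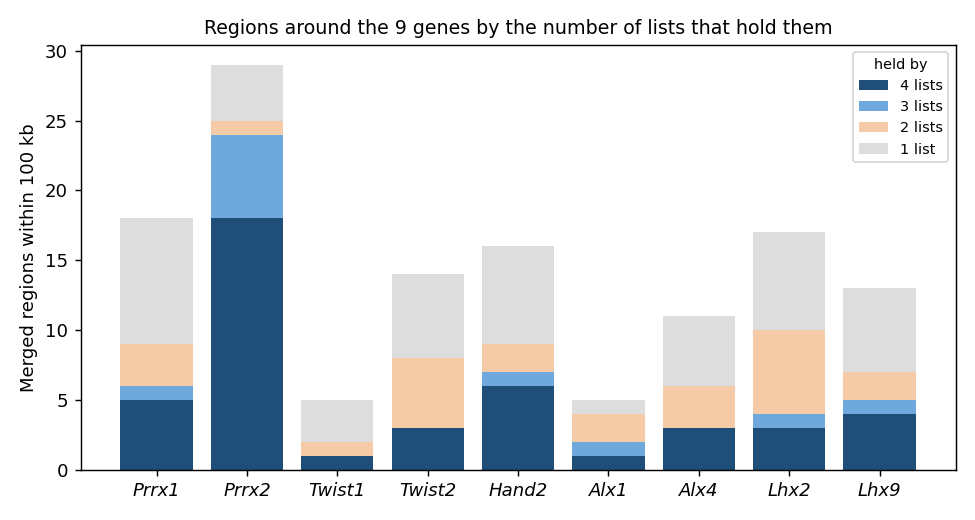
Number of joined regions within 100 kb of each gene (vertical axis), divided by how many of the 4 lists held them (colours). All 4 lists held 18 of the 29 regions around Prrx2 and 6 of the 16 around Hand2, but 1 of 5 around both Twist1 and Alx1.

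The distal regions shared by all 4 lists were concentrated at Prrx2, with 10, and Hand2, with 5. Prrx1 had 3, Twist2, Alx4 and Lhx9 had 2 each, Lhx2 had 1, and Twist1 and Alx1 had 0. Per 100 kb of window, Prrx2 stood at the 99.9 percentile and Hand2 at the 97.9 percentile of protein-coding genes, and Prrx1 at 81.6. Lhx9, Alx4 and Twist2 stood between 67.5 and 70.7, Lhx2 at 45.9 and Twist1 and Alx1 at 18.4. The median was 2 such regions over the 9 genes and 1 over all protein-coding genes. For regions of every kind held by all 4 lists the order was the other way, with medians of 3 and 4 regions.

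Around Hand2, the 5 shared distal regions lay 8471 bases upstream of the start and 7748, 13044, 20016 and 32739 bases downstream of it. The most distant, chr8:59832028-59833181, was intergenic and the strongest of them, with 76.6 and 92.2 in the stop cassette lists and 88.4 and 86.3 in the wild-type lists. Its mean of 85.9 was above that of the Hand2 start region, 71.4. The region 7748 bases downstream varied least, with 81.0, 83.0, 78.3 and 83.9. The 120 bases on the strongest summit of the most distant region (plus strand, chr8:59832460-59832579) are given because they hold a CAGATG, the E-box form in capitals, which basic helix-loop-helix dimers can bind.
Hand2 distal: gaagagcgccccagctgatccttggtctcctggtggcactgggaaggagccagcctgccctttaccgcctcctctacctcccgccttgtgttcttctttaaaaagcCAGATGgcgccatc

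Around Prrx2, 4 of the 10 shared distal regions lay inside the gene, all in introns, 1713, 18143, 30029 and 37850 bases after the outermost start. Each of these was stronger on average than the gene's own start summits, with means from 40.7 to 67.0 against 25.7. The shared distal region with the highest mean rank, chr2:30649691-30650717, lay 40035 bases upstream in a non-coding exon of 1700001O22Rik. It ranked at 92.9 and 85.2 in the stop cassette lists and at 80.8 and 89.6 in the wild-type lists. A second region, chr2:30613812-30614356, had a slightly lower mean (86.8 against 87.1) but was the higher of the pair in 3 of the 4 lists, with 76.7, 89.5, 89.1 and 91.8. The 120 bases on the summit of the region with the higher mean (plus strand, chr2:30650398-30650517) open with the same E-box form read from the other strand, CATCTG.
Prrx2 distal: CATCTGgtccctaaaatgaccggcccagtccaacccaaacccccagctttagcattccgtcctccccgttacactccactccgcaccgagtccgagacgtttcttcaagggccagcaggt

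In Twist2 the strongest shared distal region, chr1:93741080-93741877, lay in the gene's intron 43330 bases after the start. It ranked at 36.8 and 80.7 in the stop cassette lists and at 46.6 and 50.7 in the wild-type lists, so that stop cassette replicate 2 stood above the rest. It too held a CAGATG in the 120 bases on its strongest summit (plus strand, chr1:93741309-93741428).
Twist2 distal: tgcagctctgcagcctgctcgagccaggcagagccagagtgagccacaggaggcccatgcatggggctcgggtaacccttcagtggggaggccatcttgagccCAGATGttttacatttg

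The strongest shared distal region of Prrx1, chr1:165080471-165081107, was intergenic, 162994 bases downstream of the outermost start and beyond the end of the gene, with ranks of 49.1, 87.1, 58.1 and 62.9. That of Alx4, chr2:93612187-93613536, lay 130333 bases downstream in an intron of the neighbouring gene Ext2, with 55.0, 87.1, 74.9 and 57.5 in the same order. In both, stop cassette replicate 2 was the highest library. Neither region held a CAGATG or a TAATTA in the 300 bases on its strongest summit.

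For Lhx2 and Lhx9 the strongest shared distal region lay in a coding exon of the gene itself. The Lhx2 region, chr2:38224099-38224788, ranked at 77.1 and 87.4 in the stop cassette lists and at 27.2 and 41.5 in the wild-type lists. The Lhx9 region, chr1:140727821-140728381, ranked at 86.9 and 80.5 against 54.9 and 40.1. In both regions the stop cassette values were above the wild-type values. This was so for 6 of the 25 shared distal regions near the 9 genes (2 each at Prrx2 and Lhx9, 1 each at Alx4 and Lhx2), against 36.4% of all 10846, and the reverse for 0 of 25, against 2.73%. These ranks were not taken at equal list length, and list length cannot be told apart from genotype. The Lhx2 and Lhx9 regions also share sequence. The 50 bases below are the coding stretch most alike between them, at chr2:38224365-38224414 on the plus strand for Lhx2 and chr1:140728149-140728198 on the minus strand for Lhx9, with identical bases in capitals. They match at 40 of 50 positions (80%), and all 50 bases lie in annotated coding sequence of each gene. They lie 113 and 18 bases from the strongest summit of their region.
Lhx2: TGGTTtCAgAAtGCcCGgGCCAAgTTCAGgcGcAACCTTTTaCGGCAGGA
Lhx9: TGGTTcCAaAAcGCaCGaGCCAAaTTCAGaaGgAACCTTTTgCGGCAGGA

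Over all 102 distal regions, CAGATG was found in the 300 bases on the strongest summit in 38 (37.3%), against 29.4% of all distal regions, and CANNTG in 87.3% against 84.0%. TAATTA was found in 9 (8.82%) against 9.94%, and TAAT and ATTA 3 bases apart, a form bound by paired-type homeodomain dimers, in 1 (0.980%) against 0.519%. For distal regions held by all 4 lists, CAGATG was in 11 of 25 (44%) against 28.3%, and CANNTG in 25 of 25 against 81.8%. TAATTA was in 2 of 25 (8%) against 8.24%. The base composition differed as well, with a median GC content of 57.3% against 51.3% and a ratio of observed to expected CpG of 0.452 against 0.298. Its part in the motif shares was not tested.

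CAGATG and TAATTA occurred together in 5 of the 102 distal regions (4.90%, against 2.86% of all distal regions), and in 0 of the 25 held by all 4 lists. Of the 5, 3 were near Prrx1, 1 near Prrx2 and 1 near Alx4. The closest spacing, 2 bases, was in a region 160748 bases downstream of the outermost Prrx1 start. It was held by stop cassette replicate 2 alone and ranked at 2.33 there, among the weakest summits of that list. Its 60 bases (plus strand, chr1:165083093-165083152) show both motifs in capitals.
Prrx1 distal: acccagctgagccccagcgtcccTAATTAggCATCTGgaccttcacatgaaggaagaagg

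There were 10 specific to the stop cassette among the 128, and the same kind made up 10.03% of all regions. There was 1 specific to the wild type, against 0.314%. By mean percentile the strongest stop cassette-specific region was chr1:93771114-93771620, intergenic and downstream of Twist2, with 61.4 and 65.3. The next were chr10:102455073-102455861 downstream of Alx1, with 21.6 and 84.3, and chr2:38231468-38231970 downstream of Lhx2, with 56.2 and 40.4. The wild type-specific region, chr10:102507577-102508089, lay 16154 bases upstream of Alx1 with 12.4 and 47.5. Alx1 thus had regions of both kinds within 100 kb. At equal list length the counts were 2 and 3. Shares over all regions were not taken at equal list length or with a library left out, so those counts have no background. Without stop cassette replicate 1 the stop cassette-specific count was 46 and without wild-type replicate 2 it was 17. The wild type-specific count rose to 7 when wild-type replicate 1 was left out, and to 3 when either of the replicates numbered 2 was.

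Of genes that work with these factors, a list of dimer partners and LIM cofactors was described. All 7 of its genes had a start summit in all 4 lists, against 57.6% of all protein-coding genes. Among them were Tcf3 and Tcf12, the E-proteins that pair with Twist and Hand factors, and Ldb1, which binds LIM domains. The median over the 7 genes of the mean start rank was 86.7, close to the 89.7 of the 12802 genes called in all 4 lists. It was 65.7 over the 8 limb mesenchyme genes called in all lists and 58.9 over the 8 limb bud genes. By density, both stop cassette libraries were higher in 2 of the 7, against 13.7% of all genes tested, and both wild-type libraries in 1, against 19.3%.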

How the data were processed

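ATAC-seq summit lists of 4 libraries were used as deposited, 1 list per library. Reads were aligned to mm9 with Bowtie2 2.2.6 and handled with Picard, per the submitters' processing notes; the peak caller and any control track are not given in the sources used here. The deposited score was read as −log10 of a q-value from its lowest value (1.30 to 1.31, a q-value of 0.05). Ties were given their average rank. Between 4.56% and 5.61% of a list shared its most common score, so a percentile can repeat. Summits were assigned to GENCODE M1 genes on NCBIM37, with transcripts merged by symbol and chromosome: within 1 kb of a start, and within 100 kb of the gene body. Just inside these limits lay a Twist2 summit at 958 bp and a Prrx1 summit at 99136 bp, and just outside a Twist2 summit at 1061 bp and an Lhx2 summit at 100374 bp. Unplaced sequences held 0.102% to 0.172% of a list and were left out of windows. Regions joined summits extended by 250 bp with an overlap of at least 1 bp.

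Group means were compared per gene by two-sided exact permutation tests (6 assignments, smallest p 0.33), with Benjamini-Hochberg adjustment over all protein-coding genes tested. Wilson intervals cover counting error only. The genes, related lists and windows were chosen with earlier results of these data known. All 9 genes were named, with their start region and the distal region in all 4 lists of highest mean percentile. Of genotype-specific regions the 3 highest in each direction were named, and other regions were singled out after their values were seen. A list of related genes is not reported here. Alternatives were equal list length (51701 summits, with tied scores dropped at random), scores above 5.83 only (the stricter threshold), other distances, windows and extensions, distal summits only, a replicate block and leaving out each library. The counting was tested on simulated data. Python 3.11.15, NumPy 2.4.6, SciPy 1.17.1, pandas 2.3.3, pysam 0.24.0, samtools 1.23.1 and matplotlib 3.10.9 were used. Replicate numbers were taken from the titles. In both wild-type lists the summit names bear 1 common replicate number followed by a sub-number. Same-numbered libraries deviated together with a correlation of 0.247 over 20485 densities and 0.198 over 12802 start ranks, but the labels tie the numbers to no shared source, and there are only 2 pairs. In both genotypes replicate 2 had the longer list, and the part of list length in these correlations was not tested.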

Additional observations from a re-analysis of the deposited data

How the results depend on the processing

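The replicate block is the mean of the differences within replicate numbers, which with 2 pairs equals the difference of group means. It therefore could not change any group difference, for example -17.7 percentile points for the Lhx9 start and 0.317 per 10000 for the Twist1 density (exact sign-flip p = 0.5 each). No difference passed 0.33 in any exact permutation test, so these tests say nothing about stability. Direction was kept in 72 of 90 alternatives for density and 51 of 65 for start rank. Both totals include the replicate block, which could not change a direction. Of the counts, 29 of 48 alternatives stayed within 1.5 times. Under the stricter threshold, 4 genes had a start summit in all lists and 18 regions were held by all 4. The share over all genes was not taken at that threshold. A window of 200 kb gave 67 regions held by all 4 and 21 stop cassette-specific ones. With lists of equal length the stop cassette had 2 such regions of its own and the wild type 3, and under the stricter threshold the wild type had 0. Shares over all regions were not taken under any of these alternatives. Leaving out each library gave 12 to 46 regions specific to the stop cassette and 1 to 7 specific to the wild type. Densities higher in both stop cassette libraries fell from 2 genes to 0 at equal list length, 1 with windows of 50 kb, 1 with 200 kb and 0 for distal summits. Those higher in both wild-type libraries went from 1 to 0 under the stricter threshold, 3 with 50 kb and 0 for distal summits. The cause was not tested. Density differences changed sign at equal list length in Prrx1 (-0.290), Alx4 (-0.0967) and Lhx2 (-0.193); under the stricter threshold in Prrx2 (0.967), Hand2 (0.252) and Alx1 (0.160); with 200 kb in Prrx1 (-0.00304) and Prrx2 (0.160); and for distal summits in Prrx1 (-0.0529), Prrx2 (0.0842), Alx1 (0.0889) and Lhx9 (0.0880). With each library left out they ranged from -0.266 to 0.476 in Prrx1, -0.0757 to 0.919 in Twist2, -1.04 to 0.292 in Hand2, -0.116 to 0.795 in Alx4 and -0.269 to 0.0767 in Lhx9. Start differences changed sign at equal list length in Prrx1 (-9.60), Twist1 (-13.7), Hand2 (-11.7), Alx4 (-8.77) and Lhx2 (-2.24), and under the stricter threshold in Alx1 (6.03). With each library left out they ranged from -9.51 to 46.8 in Prrx1, -3.55 to 5.20 in Twist1, -11.4 to 22.9 in Hand2, -17.5 to 13.8 in Alx1, -0.378 to 27.3 in Alx4 and -2.58 to 18.8 in Lhx2. The start differences of Lhx9 and Twist2 and the density difference of Twist1 kept their sign wherever a value could be had. For the Lhx9 start and the Twist1 density, leaving out a library could not change the sign, because the genotypes did not overlap. Depth is unknown and limits every call of a weak summit.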

Other observations

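Near 4 of the 9 genes, the region with the highest mean rank among those held by all 4 lists lay at the start of another gene. Near Prrx1, the start of Gorab averaged the 99.0 percentile over the 4 lists, and near Lhx9 that of 2310009B15Rik also averaged 99.0. Near Prrx2 the start of Mettl11a averaged 96.5, and near Lhx2 that of Dennd1a 90.9. The highest own start region, at Lhx2, averaged 78.2.

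By the 4 window densities, the 5 other protein-coding genes nearest to the medians over the 9 genes (1.14, 1.95, 1.16 and 1.46 per 10000) were 4930412O13Rik, 9230102O04Rik and Gata3, each at a Euclidean distance of 0.0927, then Lrrc1 at 0.126 and 1700010B08Rik at 0.146. The first 3 have the same densities and lie on chromosome 2. The likeness is over 4 libraries.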
